A study of Homo sapiens with 20 samples.

Results

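The genes described here encode FOXM1, the MYB-type factors MYBL2 (B-MYB) and MYBL1 (A-MYB), the MuvB core proteins LIN9, LIN37, LIN52, LIN54 and RBBP4, and the pocket proteins RBL1 and RBL2. They were taken by gene symbol, and each of the 10 was measured by 1 transcript cluster of the Affymetrix Clariom S array, among 17709 clusters that carried exactly 1 gene symbol. The series asked which transcripts differ between cancer cells that became resistant to prexasertib and the sensitive cells they came from; prexasertib blocks CHK1, a kinase of the DNA damage checkpoint. Total RNA of cultured cells was profiled on 20 arrays in 6 groups: resistant and parental NCI-H520, a lung squamous carcinoma line (n = 3 each), resistant and parental SJCRH30, an alveolar rhabdomyosarcoma line (n = 3 each), and resistant (n = 5) and parental (n = 3) Rh41, also an alveolar rhabdomyosarcoma line. The resistant NCI-H520 and Rh41 cultures were selected in vitro with rising drug concentrations, and the Rh41 cultures were selected independently of each other. The paper states that the resistant SJCRH30 line was grown out of a xenograft that had regrown after prexasertib in a mouse. Its parental partner came out of a xenograft of a mouse given vehicle, so by this account the pair also differs in the tumour of origin. The series description instead gives drug escalation in vitro for all resistant lines. Titles of the SJCRH30 samples taken here as resistant read prexasertib, without the word resistant. The groups of NCI-H520 and of SJCRH30 each came from a single line, so their p-values measure the spread between cultures of a line and not between independently selected lines. The methods state that lines set up from the xenografts were passaged with prexasertib in the medium, but not whether the drug was there in any line when RNA was taken, so effects of the drug itself and of resistance cannot be told apart. The arrays were made from whole cultures, in which a larger share of dividing cells and more RNA per cell cannot be told apart.

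Values are log2 RMA values, and their precision is limited by the number of arrays. The 8 Rh41 arrays had been normalized apart from the other 12 on a narrower scale, with a standard deviation of 1.99 over all clusters against 2.99 in the other set. No test therefore sets Rh41 against another line. Each fit was repeated with values mapped by rank to the distribution of the other set, called here the scale of the other set. On it the changes of the members were smaller in NCI-H520 and SJCRH30 and larger in Rh41, except MYBL1 in Rh41, which was smaller. A gene was called risen or fallen where the limma adjusted p was under 0.05 (Benjamini-Hochberg over the 17709 clusters) and the change exceeded 1.5-fold on the deposited scale of that line. Arrays of the same group correlated at r = 0.983 to 0.994 and arrays of the resistant and parental groups of a line at 0.964 to 0.976. The cell types matched the labels in part. The 10 muscle and rhabdomyosarcoma markers included MYOG at 14.45 in resistant and 15.33 in parental SJCRH30, and at 10.95 in resistant and 11.01 in parental Rh41. With resistance 5 of the 10 rose in Rh41 (MYH8 by 1.92, DES by 0.86, NCAM1 by 0.79, MYH3 by 0.72 and CHRNG by 0.59) and 1 fell (MYOD1 by 0.62), while 2 rose and 2 fell in SJCRH30 and 1 fell in NCI-H520. Their summed level, as log2 of the sum of linear values, ran from 12.99 to 13.06 in resistant and from 12.60 to 12.83 in parental Rh41, and from 16.01 to 16.09 in resistant and from 16.27 to 16.55 in parental SJCRH30. Its part in the results below was not tested. Over all clusters 5.69% rose and 3.08% fell with resistance in Rh41, 9.42% and 9.28% in SJCRH30, and 9.9% fell in NCI-H520. In NCI-H520, 3 of the 7 squamous markers measured had a mean of 5 or more in both groups: EPCAM, SOX2 and DSC3. The epithelial marker EPCAM stood at 16.87 in resistant and 15.98 in parental cells, and SOX2 at 16.33 and 15.59. The squamous keratin KRT5 stood at 3.64 in resistant and 3.72 in parental cells, under the level of 5 taken here as low signal. KRT14, DSG3 and PKP1 were also under that level in both NCI-H520 groups. In Rh41, on its own scale, 4 of the same 7 markers had a mean of 5 or more in both groups. The highest of them there was PKP1, at 7.82 in resistant and 8.79 in parental cells, so this count did not set NCI-H520 apart. None of 4 endothelial markers passed 6.53 and none of 5 leukocyte markers passed 5.80 as a group mean.

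As background, these proteins form alternating complexes around the same MuvB core, whose LIN54 subunit contacts DNA at the cell cycle genes homology region (CHR). With RBL2 or RBL1, the repressor E2F4 or E2F5 and a DP protein, MuvB forms the DREAM complex, which silences cell cycle genes in quiescent cells. As cells enter the cycle, cyclin-dependent kinases phosphorylate the pocket proteins, MuvB lets them go, and MYBL2 and then FOXM1 join it to activate genes of the G2 and M phases. Genes of the G1/S transition are instead reached by DREAM mainly through E2F sites.

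These DNA elements are illustrated by promoter windows of 300 bases from RefSeq (GRCh38.p14), from 250 bases before to 50 bases after an annotated start. The windows matched 8 of the 10 members by symbol, all but FOXM1 and MYBL1, with 14 windows in all. The letters searched, on both strands, were TTTGGCGC, TTTCGCGC, TTTCCCGC or TTTGCCGC for an E2F site, TTTGAA or TTCGAA for a CHR, and CCAAT for the CCAAT box, the element bound by NF-Y. Where a match lies on the other strand its reverse complement is in capitals (ATTGG for CCAAT and TTCAAA for TTTGAA), and positions count the annotated start as 0. RBL1 is shown because its transcript rose in resistant NCI-H520 and its window holds 2 E2F-type matches, at -26 to -19 and -16 to -9 (chr20:37095948-37096247, minus strand). LIN9, which rose in the same line, is shown by the window with CHR-type letters at -60 to -55 and at -3 to 2 (chr1:226309115-226309414, minus strand). The other LIN9 windows hold none of the letters searched. RBL2 fell in NCI-H520, and the window shown holds TTTGAA after the start, at 24 to 29 (chr16:53434221-53434520, plus strand). MYBL2, with the largest difference in change between lines among the members, has no exact copy of these letters in its window (chr20:43666864-43667163, plus strand). Variants of the letters were not searched, so this does not show that the window lacks an E2F site or a CHR. CDK1, which encodes the main mitotic kinase, stands for the G2/M target genes, with matches of all 3 kinds in the window shown (chr10:60778228-60778527, plus strand). Capitals mark the matches in each sequence.
RBL1: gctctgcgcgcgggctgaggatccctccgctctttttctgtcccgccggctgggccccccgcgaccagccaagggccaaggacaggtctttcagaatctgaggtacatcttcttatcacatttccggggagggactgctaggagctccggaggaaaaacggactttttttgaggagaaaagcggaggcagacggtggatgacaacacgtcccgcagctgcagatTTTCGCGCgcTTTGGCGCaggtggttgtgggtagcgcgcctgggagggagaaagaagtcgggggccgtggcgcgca
LIN9: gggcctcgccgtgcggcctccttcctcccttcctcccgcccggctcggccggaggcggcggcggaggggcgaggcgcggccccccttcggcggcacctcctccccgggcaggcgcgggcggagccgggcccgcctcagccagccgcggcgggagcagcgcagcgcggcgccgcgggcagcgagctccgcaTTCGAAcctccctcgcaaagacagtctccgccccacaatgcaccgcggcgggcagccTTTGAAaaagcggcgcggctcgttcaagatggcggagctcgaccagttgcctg
RBL2: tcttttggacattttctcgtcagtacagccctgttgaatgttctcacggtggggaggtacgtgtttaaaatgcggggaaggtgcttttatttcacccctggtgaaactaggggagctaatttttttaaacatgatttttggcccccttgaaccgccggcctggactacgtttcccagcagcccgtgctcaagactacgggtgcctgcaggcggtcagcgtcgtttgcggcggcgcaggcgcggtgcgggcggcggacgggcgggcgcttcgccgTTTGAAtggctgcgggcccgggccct
MYBL2: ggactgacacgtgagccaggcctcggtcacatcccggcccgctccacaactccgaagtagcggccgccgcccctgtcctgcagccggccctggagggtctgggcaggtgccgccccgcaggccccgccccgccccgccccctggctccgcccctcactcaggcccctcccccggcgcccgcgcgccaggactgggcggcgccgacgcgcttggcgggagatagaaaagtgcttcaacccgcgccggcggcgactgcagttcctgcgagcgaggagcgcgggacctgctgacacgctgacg
CDK1: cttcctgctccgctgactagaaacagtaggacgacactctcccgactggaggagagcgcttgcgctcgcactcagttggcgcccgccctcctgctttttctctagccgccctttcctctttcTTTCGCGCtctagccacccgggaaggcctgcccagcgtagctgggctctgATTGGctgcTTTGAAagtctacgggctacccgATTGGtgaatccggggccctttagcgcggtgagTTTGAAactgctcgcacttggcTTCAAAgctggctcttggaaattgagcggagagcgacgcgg

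Across all 35116 RefSeq windows of this length, the E2F letters were found in 3.31%, the CHR letters in 16.4% and CCAAT in 34.6%. Among the windows of the members, 2 of 14 held E2F letters (RBL1 and LIN52), 5 held CHR letters (LIN9, LIN54, RBL2 and LIN37) and 5 held CCAAT. None held CHR and CCAAT letters together. Windows of the same gene can overlap and count a site more than once, as for TTTGAA in LIN54 and a CCAAT box in RBBP4. For the G2/M target genes used below, 67.9% of 56 windows held CHR letters and 60.7% held both CHR and CCAAT letters, against 6.38% of all windows. For the G1/S target genes 39.4% of 66 windows held E2F letters and 6.06% held CHR letters. The target lists were compiled from genes known to be bound by these complexes, so these shares describe the lists and are not independent of how they were made. A match is a description of the sequence only, and says nothing on whether a factor was bound in these cells.

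In resistant NCI-H520, the activator genes FOXM1 and MYBL2 rose, and of the MuvB core genes only LIN9 did. Of the pocket protein genes, RBL2 fell and RBL1 rose. Of the 10 members, 5 rose (FOXM1, MYBL2, LIN9, MYBL1 and RBL1) and 1 fell (RBL2), where 10.1% of all clusters rose and 9.9% fell. The median change of the members was 0.67 log2, against 0.0065 over all clusters. In SJCRH30 the direction of FOXM1 and MYBL2 was the opposite. There 1 member rose (MYBL1) and 2 fell (FOXM1 and MYBL2), where 9.42% of all clusters rose and 9.28% fell, and the median was -0.0063 against 0.0070. In Rh41 1 member rose (MYBL1) and none of the others was called, where 5.69% of all clusters rose and 3.08% fell, with a median of -0.10 against -0.035. At an unadjusted p under 0.05, 6 members were higher and 1 lower in resistant NCI-H520, where 15.5% and 15.1% of all clusters were. By the same rule 2 were higher and 3 lower in SJCRH30 (15.4% and 15.2% of all clusters), and 3 were higher and 4 lower in Rh41 (16.8% and 16.4%).

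**Figure D1:**
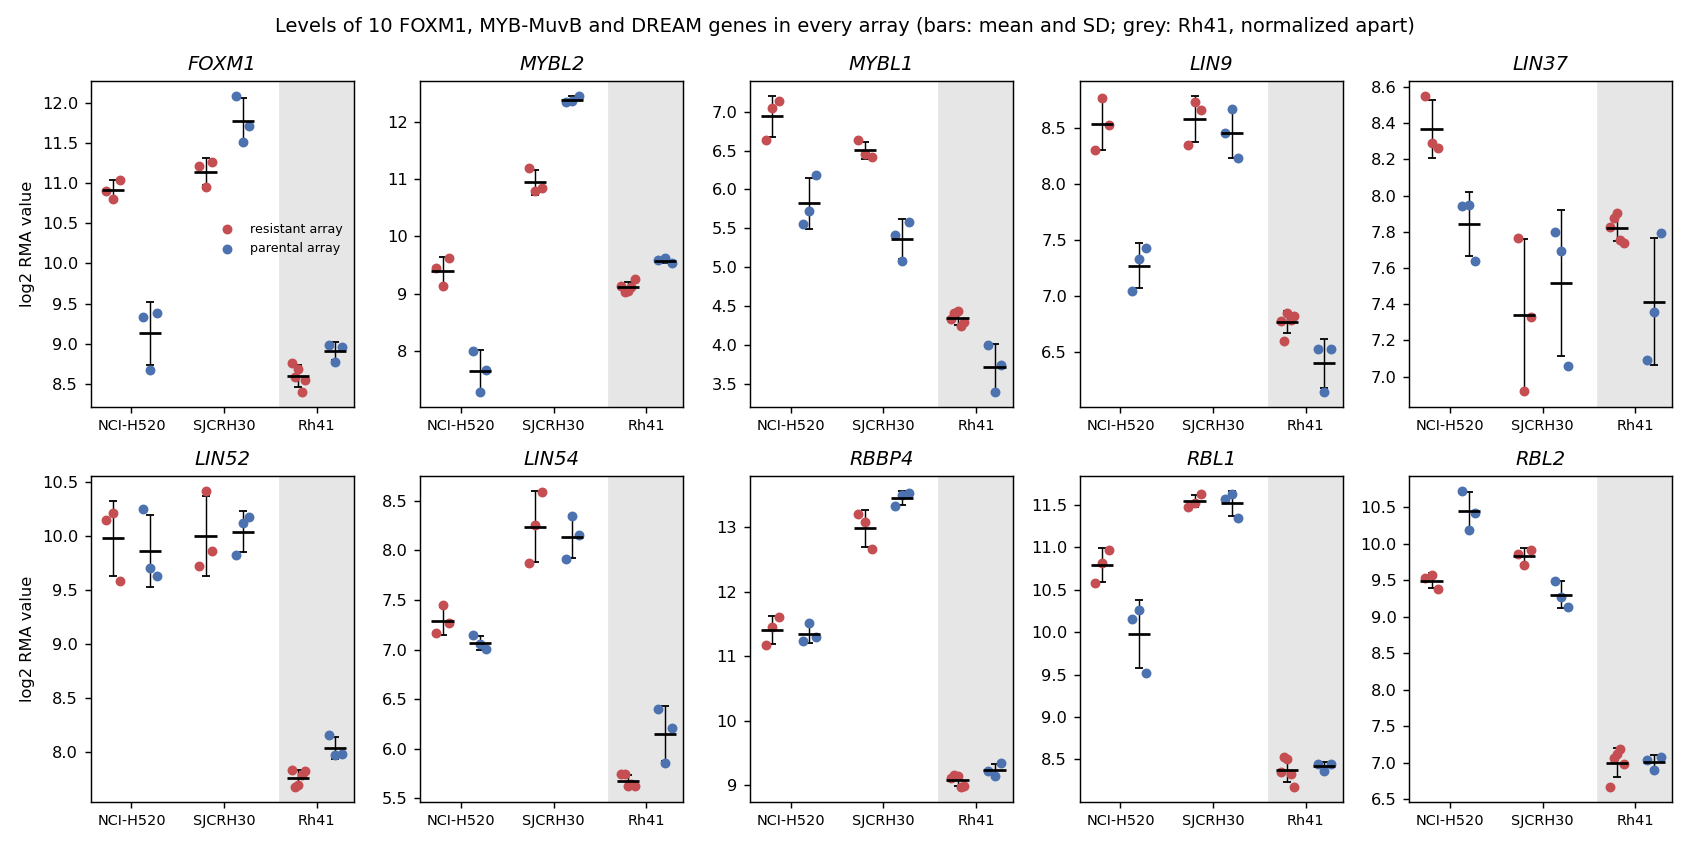
Log2 RMA value of each gene on every array, with resistant arrays (red) left of parental arrays (blue) in each line, and black bars for the mean and SD of a group. FOXM1 and MYBL2 are above parental in all resistant NCI-H520 arrays and below parental in all resistant SJCRH30 and Rh41 arrays, and Rh41 (grey band) is on a scale of its own.

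FOXM1, a forkhead factor that drives the expression of mitotic genes, had log2 values of 10.90, 10.80 and 11.05 in resistant NCI-H520 arrays, against 9.33, 8.68 and 9.39 in parental arrays. Every resistant array was far above the highest parental array. FOXM1 rose by 1.78 ± 0.22 (SE), or 3.44-fold, with a limma adjusted p of 0.000169, and the change stayed between 1.56 and 1.91 when any 1 array was left out. In SJCRH30, FOXM1 had 11.22, 10.95 and 11.26 in resistant arrays, against 12.09, 11.52 and 11.72 in parental arrays. The groups did not overlap, with all 3 resistant arrays below. FOXM1 fell by 0.63 ± 0.21 (SE), or 1.55-fold, with a limma adjusted p of 0.0497, which lies at the threshold. That call was lost when parental array 1 or 3 or resistant array 1, 2 or 3 was left out, with changes of -0.76 to -0.47 and adjusted p up to 0.184, and among arrays left out it held only without parental array 2. On the scale of the other set the change was -0.34 and not called. In Rh41 the 5 resistant arrays had 8.76, 8.59, 8.68, 8.40 and 8.54, against 8.98, 8.78 and 8.96 in the 3 parental arrays. All resistant arrays were lower than all parental arrays, but the change of -0.31 ± 0.11 (SE) did not pass the adjusted threshold (limma adjusted p = 0.0673). On the scale of the other set it was -0.577 and passed the adjusted p (limma, 0.0309), but not the fold threshold.

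MYBL2, the MYB factor that joins MuvB from S phase onward, differed most between the lines. It had 9.44, 9.13 and 9.62 in resistant NCI-H520 arrays, against 8.0, 7.28 and 7.67 in parental arrays, with no overlap. MYBL2 rose by 1.74 ± 0.23 (SE), or 3.35-fold (limma adjusted p = 0.000231). In SJCRH30, MYBL2 had 11.19, 10.79 and 10.84 in resistant arrays, against 12.34, 12.36 and 12.45 in parental arrays. It fell by 1.44 ± 0.19 (SE), or 2.72-fold (limma adjusted p = 0.000218), and no array left out moved this outside -1.57 to -1.37. In Rh41, MYBL2 had 9.13, 9.03, 9.04, 9.12 and 9.26 in resistant arrays, against 9.58, 9.61 and 9.53 in parental arrays. The groups did not overlap and the limma adjusted p was 0.00509, while the change of -0.46 ± 0.09 (SE) stayed under the fold threshold of this narrower scale. On the scale of the other set it was -0.83 and was called.

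MYBL1, the MYB factor best known for driving meiotic genes in the mouse testis, was the only member called in the same direction in all 3 lines. In NCI-H520 its values were 6.64, 7.05 and 7.14 in resistant arrays, against 5.55, 5.72 and 6.19 in parental arrays, a rise of 1.12 ± 0.23 (SE; limma adjusted p = 0.00399). In SJCRH30 the resistant arrays had 6.63, 6.46 and 6.42, against 5.41, 5.08 and 5.58 in parental arrays, a rise of 1.15 ± 0.20 (SE; limma adjusted p = 0.00142). All resistant arrays of both lines lay above all parental arrays of their line. In Rh41 the resistant arrays had 4.33, 4.41, 4.44, 4.24 and 4.29, against 4.0, 3.39 and 3.73 in parental arrays, again with no overlap. MYBL1 rose there by 0.63 ± 0.13 (SE; limma adjusted p = 0.00614), close to the fold threshold and with both group means at low signal. The Rh41 call was lost without parental array 2, where the change was 0.47, and on the scale of the other set, where it was 0.42.

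**Figure D2:**
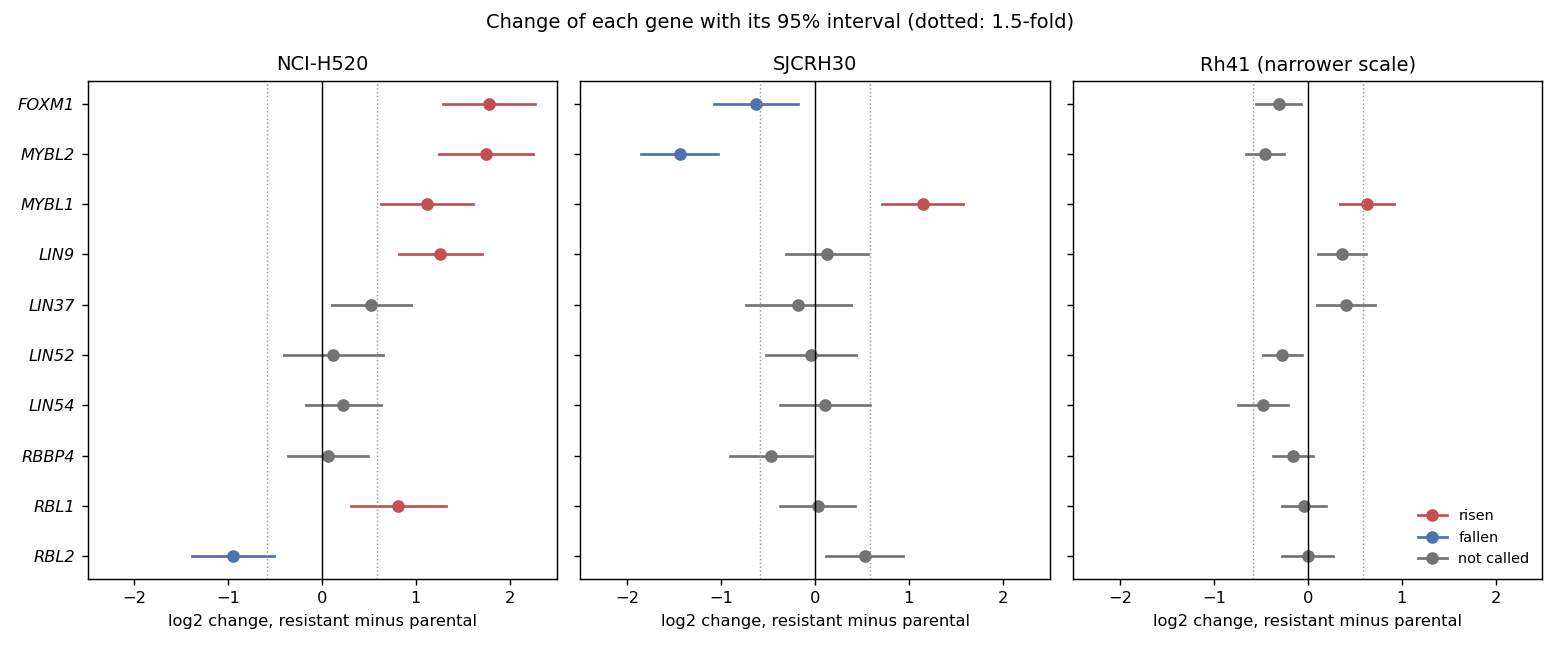
Change in log2 RMA value, resistant minus parental, with its 95% interval for each gene in NCI-H520, SJCRH30 and Rh41; dotted lines mark 1.5-fold. MYBL1 lies to the right of 0 in all 3 lines, whereas FOXM1 and MYBL2 lie to the right in NCI-H520 and to the left in SJCRH30 and Rh41.

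Within the MuvB core, with all arrays kept, only LIN9 was called on the deposited scale, and only in NCI-H520. LIN9, a subunit that contacts MYBL2, had 8.30, 8.77 and 8.52 in resistant NCI-H520 arrays, against 7.04, 7.33 and 7.43 in parental arrays. The groups stood well apart, and LIN9 rose by 1.26 ± 0.20 (SE), or 2.40-fold (limma adjusted p = 0.000930). In SJCRH30 the groups overlapped, at 8.34, 8.73 and 8.66 in resistant arrays and 8.45, 8.67 and 8.23 in parental arrays, and the interval of the change ran from -0.31 to 0.56. In Rh41, LIN9 had 6.78, 6.60, 6.85, 6.79 and 6.82 in resistant arrays, against 6.53, 6.15 and 6.53 in parental arrays. No resistant array was as low as a parental one, and the change of 0.37 ± 0.12 (SE) passed the adjusted p (limma, 0.0452) but not the fold threshold, while on the scale of the other set it was 0.75 and called.

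None of the other core genes was called in any line on the deposited scale with all arrays kept. LIN54, the DNA-binding subunit, changed by 0.23 in NCI-H520 (95% interval -0.17 to 0.62) and by 0.10 in SJCRH30 (-0.38 to 0.58). In Rh41 LIN54 had 5.75, 5.74, 5.63, 5.64 and 5.62 in resistant arrays, against 6.40, 5.85 and 6.21 in parental arrays. These groups did not overlap, and the change of -0.48 ± 0.12 (SE) passed the adjusted p alone (limma, 0.0184). On the scale of the other set LIN54 was called, at -0.83, and so it was without parental array 2, at -0.62. LIN52, the subunit whose phosphorylation by DYRK1A favours DREAM assembly, changed by 0.12 in NCI-H520 (-0.41 to 0.65), by -0.04 in SJCRH30 (-0.52 to 0.44) and by -0.27 in Rh41 (-0.48 to -0.07), with limma adjusted p of 0.801, 0.933 and 0.0635. LIN37, which is needed for repression by DREAM, changed by 0.53 in NCI-H520 (0.11 to 0.94), by -0.18 in SJCRH30 (-0.74 to 0.38) and by 0.41 in Rh41 (0.10 to 0.72), and none of these was called. The Rh41 change of LIN37 was called on the scale of the other set, at 0.77, and without parental array 3, at 0.60. RBBP4, a histone-binding protein shared with several chromatin complexes, changed by 0.06 in NCI-H520 (-0.37 to 0.49), by -0.47 in SJCRH30 (-0.90 to -0.03) and by -0.16 in Rh41 (-0.37 to 0.05), likewise not called. With the adjusted p alone, 2 members of Rh41 were higher (MYBL1 and LIN9) and 2 lower (MYBL2 and LIN54), where 11.3% of all clusters were higher and 9.19% lower by the same rule.

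The pocket protein genes parted in NCI-H520. RBL1, itself a gene with E2F sites in its promoter, had 10.58, 10.82 and 10.97 in resistant NCI-H520 arrays, against 10.16, 10.26 and 9.52 in parental arrays. The groups did not overlap, parental array 3 stood below the other parental arrays, and RBL1 rose by 0.81 ± 0.23 (SE; limma adjusted p = 0.0274). That call was lost without parental array 3, where the change was 0.58, and without resistant array 2 or 3, where it was 0.80 and 0.72, and on the scale of the other set, where it was 0.44. RBL1 did not change detectably in SJCRH30 (0.03, 95% interval -0.37 to 0.43) or in Rh41 (-0.04, -0.27 to 0.19). RBL2, the pocket protein that dominates DREAM in resting cells, had 9.53, 9.57 and 9.37 in resistant NCI-H520 arrays, against 10.72, 10.19 and 10.42 in parental arrays. All resistant arrays were lower, and RBL2 fell by 0.95 ± 0.20 (SE), or 1.93-fold (limma adjusted p = 0.00501). On the scale of the other set the change was -0.51, under the fold threshold and so not called. In SJCRH30, RBL2 had 9.85, 9.71 and 9.92 in resistant arrays, against 9.49, 9.27 and 9.13 in parental arrays. Here all resistant arrays were higher, with a change of 0.53 ± 0.19 (SE) that was not called (limma adjusted p = 0.0694). In Rh41 the change of RBL2 was -0.0040 (-0.28 to 0.27).

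The difference between the 2 lines that share a normalization was tested in itself, as the change in NCI-H520 minus the change in SJCRH30. Of the members, 3 differed with a higher change in NCI-H520 and 1 with a lower change, where 11.8% of all clusters were higher and 11.3% lower. The difference was 3.19 ± 0.30 (SE) for MYBL2 (limma adjusted p = 5.70e-07), 2.41 ± 0.31 for FOXM1 (limma adjusted p = 1.72e-05) and 1.13 ± 0.28 for LIN9 (limma adjusted p = 0.00648), the last of which was 0.56 and not called on the scale of the other set. RBL2 differed the other way, by -1.48 ± 0.27 (limma adjusted p = 0.000474). For MYBL1 the difference was -0.03, with a 95% interval of -0.66 to 0.61. RBL1 had a difference of 0.78 (0.17 to 1.40) that was not called (limma adjusted p = 0.0634), but was with limma-trend (adjusted p = 0.0213), over clusters with a mean of 5 or more (limma adjusted p = 0.0416) and without parental NCI-H520 array 2 (limma adjusted p = 0.0385). LIN37, LIN52, LIN54 and RBBP4 had differences of 0.12 to 0.70, none of them called. Without parental SJCRH30 array 3 the LIN37 difference was 0.93 and called (limma adjusted p = 0.0490).

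**Figure D3:**
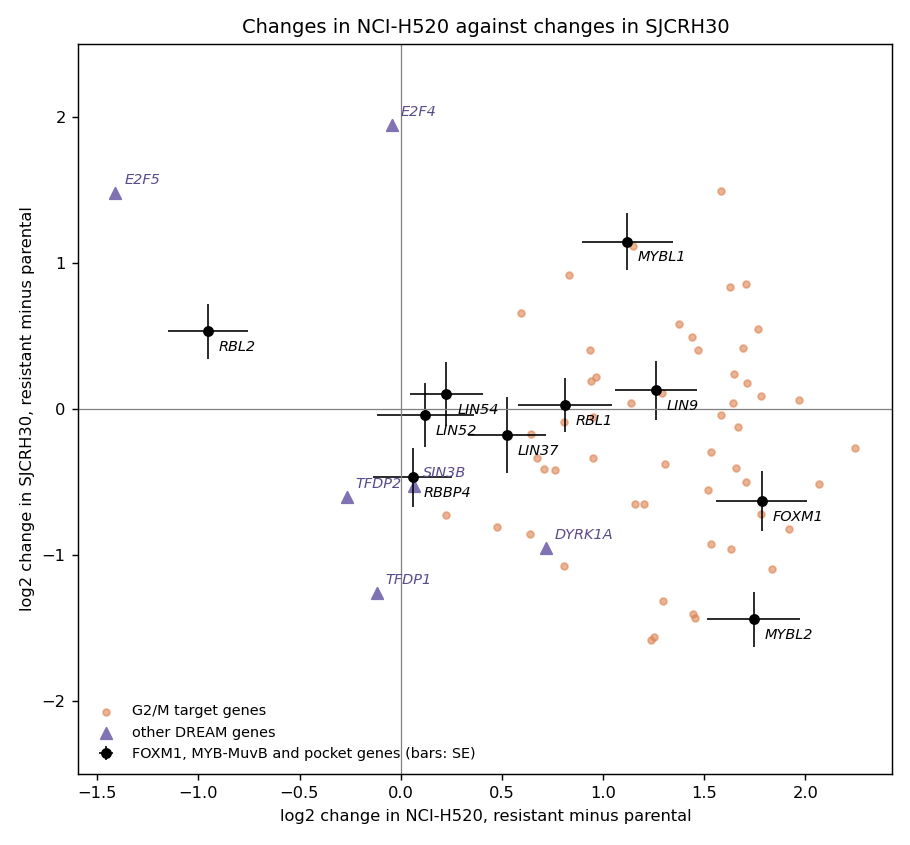
Change in SJCRH30 (vertical axis, log2, resistant minus parental) against change in NCI-H520 (horizontal axis), with black points for the 10 genes and their SE, triangles for other DREAM genes and orange points for G2/M target genes. FOXM1 and MYBL2 lie at the lower right, RBL2 and E2F5 at the upper left and MYBL1 at the upper right.

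The parental lines also started from unlike levels. Parental SJCRH30 stood above parental NCI-H520 in 6 members and below in 1, where 22.2% of all clusters were higher and 22.1% lower. MYBL2 averaged 12.38 ± 0.06 in parental SJCRH30 and 7.65 ± 0.36 in parental NCI-H520 (SD, n = 3 each), a difference of 4.73 ± 0.21 (SE; limma adjusted p = 1.72e-12). FOXM1 averaged 11.77 ± 0.29 in parental SJCRH30 and 9.13 ± 0.39 in parental NCI-H520 (SD, n = 3 each), a difference of 2.64 ± 0.22 (SE; limma adjusted p = 8.92e-09). RBBP4, RBL1, LIN9 and LIN54 were higher in SJCRH30 by 2.10, 1.54, 1.18 and 1.07, of which LIN9 (0.58) and LIN54 (0.52) were under the fold threshold on the scale of the other set. RBL2 was lower in SJCRH30 by -1.15, and MYBL1, LIN37 and LIN52 were not called.

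Ordered by mean over the 4 groups of these lines, MYBL2 stood at 12.38 in parental SJCRH30, 10.94 in resistant SJCRH30, 9.40 in resistant NCI-H520 and 7.65 in parental NCI-H520, and no neighbours in this order overlapped. FOXM1 had the same order, at 11.77 in parental SJCRH30, 11.14 in resistant SJCRH30, 10.91 in resistant NCI-H520 and 9.13 in parental NCI-H520, but the arrays of the resistant lines overlapped. RBL2 ran nearly the other way, with 10.44 in parental NCI-H520, 9.83 in resistant SJCRH30, 9.49 in resistant NCI-H520 and 9.30 in parental SJCRH30, of which the last pair overlapped. LIN9 was at 8.58, 8.53 and 8.45 in resistant SJCRH30, resistant NCI-H520 and parental SJCRH30, which overlapped, and at 7.27 in parental NCI-H520, below all of them. MYBL1 was highest in the resistant lines, at 6.94 in NCI-H520 and 6.50 in SJCRH30, with 5.82 in parental NCI-H520 and 5.36 in parental SJCRH30, whose arrays overlapped. LIN52 overlapped between all neighbours, within 9.86 to 10.04.

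The genes that MYB-MuvB and FOXM1 activate in G2 and M followed FOXM1 and MYBL2 in NCI-H520 in direction. Of 53 G2/M target genes measured, 47 rose and none fell in resistant NCI-H520, with a median change of 1.44, where the shares over all clusters were 10.1% and 9.9%. The lowest value was 0.22, so each of the 53 was above 0. KIF23, a kinesin of the cytokinetic midzone, rose by 2.25, TTK, a spindle checkpoint kinase, by 2.06, and KIFC1, a kinesin that focuses spindle poles, by 1.97. CDK1 averaged 12.80 ± 0.12 in resistant and 11.02 ± 0.06 in parental cells (SD, n = 3 each), a rise of 1.78, and the proliferation marker MKI67 averaged 12.20 ± 0.05 in resistant and 10.67 ± 0.28 in parental cells, a rise of 1.53. CCNB1 (cyclin B1) rose by 1.16 and PLK1, a mitotic kinase, by 0.94.

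In SJCRH30 the same list was mixed, with 6 risen and 16 fallen and a median of -0.27, where 9.42% of all clusters rose and 9.28% fell. CDCA3, which helps trigger mitotic entry, fell by 1.58, KIF20A, a cytokinesis kinesin, by 1.56 and UBE2S, an E2 enzyme of the anaphase-promoting complex, by 1.43. MKI67 fell by 0.93 (12.06 ± 0.02 in resistant and 12.98 ± 0.17 in parental cells, SD, n = 3 each), while CDK1 and CCNB1 fell by 0.72 and 0.65, calls that were lost for CDK1 without parental array 2 or 3 or resistant array 1 or 3 and for CCNB1 without parental array 1 or 2 or resistant array 1 or 2. Against these, the kinetochore gene NUF2 rose by 1.49, the spindle gene DLGAP5 by 1.11 and PRC1, a midzone crosslinker, by 0.92, and PLK1 changed by 0.19 without a call. Without resistant array 1 the number fallen was 10. In Rh41, 2 G2/M targets rose (KIF20A by 0.84 and HMMR, a spindle assembly factor, by 0.65) and 1 fell (CCNA2, cyclin A, by 0.88), with a median of -0.10. These were 3.77% and 1.89% of the list, under the 5.69% and 3.08% of all clusters. Without parental array 2 the call of HMMR was lost, and without parental array 3 there were 2 falls. MKI67 changed there by -0.0059 and PLK1 by -0.01.

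Genes of the G1/S transition rose in NCI-H520 as well, and in SJCRH30 more of them rose than fell. In NCI-H520, 47 of 50 measured G1/S targets rose and none fell, with a median of 1.60, where 10.1% of all clusters rose and 9.9% fell. GINS2, a subunit of the replicative helicase, averaged 12.45 ± 0.20 in resistant and 8.56 ± 0.16 in parental cells (SD, n = 3 each), a rise of 3.89. E2F1, an activator of the G1/S programme, and CCNE2, cyclin E2, each rose by 3.23. In SJCRH30, 13 G1/S targets rose and 3 fell, with a median of 0.19, where 9.42% of all clusters rose and 9.28% fell. The helicase subunit gene MCM6 rose by 1.40, UHRF1, which maintains DNA methylation, by 1.15 and ORC1, of the origin recognition complex, by 1.11. CHAF1B, a histone chaperone, fell by 1.38, the repressor E2F8 by 1.33 and HELLS, a chromatin remodeller, by 0.71, the last a call lost without any array other than parental array 1. In Rh41, 1 rose (CHEK1, the target of prexasertib, by 0.81) and 7 fell, with a median of -0.26, where 5.69% of all clusters rose and 3.08% fell. FEN1, a flap endonuclease, fell by 1.22, CCNE2 by 1.13 and PRIM1, a primase, by 0.85. The changes in NCI-H520 and SJCRH30 differed, higher in NCI-H520, for 45 of 53 G2/M targets and 35 of 50 G1/S targets, with none lower. By the same test 11.8% of all clusters were higher and 11.3% lower.

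**Figure D4:**
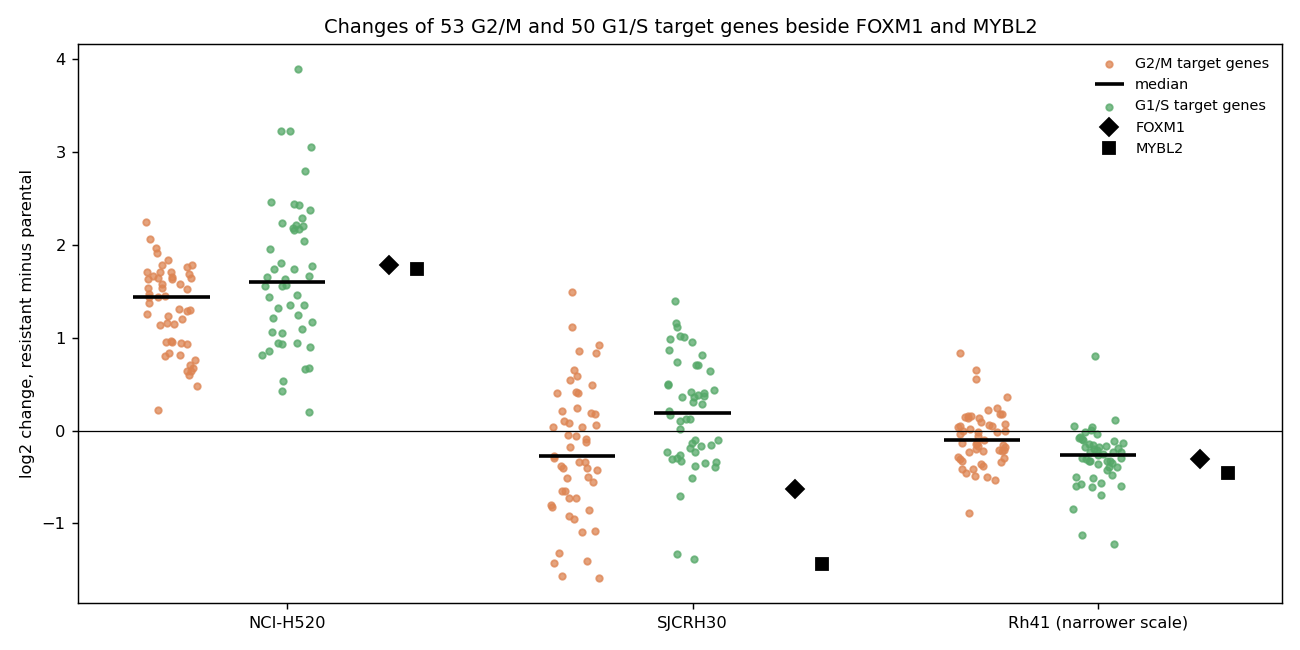
Change in log2 RMA value, resistant minus parental, of each G2/M target gene (orange) and G1/S target gene (green) in the 3 lines, with a black line at each median and FOXM1 (diamond) and MYBL2 (square) beside them. In NCI-H520 every target lies above 0, with medians of 1.44 and 1.60, in SJCRH30 21 of 53 G2/M and 30 of 50 G1/S targets lie above 0, and in Rh41 20 of 53 and 5 of 50 do.

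The remaining DREAM genes encode the repressor E2F proteins, their DP partners and cofactors. Of 6 measured, 1 rose and 1 fell in NCI-H520 (median -0.08), where 10.1% of all clusters rose and 9.9% fell. In SJCRH30 2 rose and 3 fell (median -0.57), where 9.42% of all clusters rose and 9.28% fell. In Rh41 none rose and 3 fell (median -0.44), where 5.69% of all clusters rose and 3.08% fell, and 1 of the 6 was above 0. E2F5, a repressor E2F that can stand in for E2F4, averaged 7.56 ± 0.29 in resistant and 8.97 ± 0.26 in parental NCI-H520, and 9.04 ± 0.58 in resistant and 7.56 ± 0.49 in parental SJCRH30 (SD, n = 3 each). It fell by 1.41 in NCI-H520 and rose by 1.48 in SJCRH30, and the test of the difference gave -2.89 ± 0.41 (SE; limma adjusted p = 4.63e-05). In Rh41 E2F5 fell by 0.74, from 5.29 in parental cells into low signal, at 4.56 in resistant cells. E2F4, the usual E2F of DREAM, rose by 1.94 in SJCRH30, at 12.20 ± 0.13 in resistant and 10.25 ± 0.17 in parental cells (SD, n = 3 each), and changed by -0.04 in NCI-H520 and -0.25 in Rh41 without a call. TFDP1, the main DP partner, fell by 1.26 in SJCRH30 and by 0.71 in Rh41. TFDP2, another DP gene, fell by 0.60 in each of these lines, but the SJCRH30 call was lost whichever array was left out, and the Rh41 call without parental array 1 or resistant array 1 or 3. DYRK1A rose by 0.72 in NCI-H520 and fell by 0.95 in SJCRH30, with a difference of 1.67 ± 0.27 (SE; limma adjusted p = 0.000193). The NCI-H520 call of DYRK1A was lost without parental array 2 or 3 or resistant array 1 or 3.

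Among 6 genes of the cyclins and kinases that phosphorylate pocket proteins, 2 rose in NCI-H520 (CDK2 by 2.12 and CCND3, cyclin D3, by 0.88), 2 rose in SJCRH30 (CCND3 by 1.11 and CDK6 by 0.60) and in Rh41 1 rose (CCND1, cyclin D1, by 1.06) and 2 fell (CDK2 by 0.88 and CDK4 by 0.59). The smallest of these calls were lost on leaving out single arrays: CCND3 in NCI-H520 without parental array 2 or resistant array 3, CDK6 without any array other than parental array 1, and CDK4 without parental array 3 or resistant array 1, 4 or 5. Of 7 genes of CDK inhibitors and their regulators measured, 1 fell in NCI-H520, 1 rose in SJCRH30 (CDKN2A by 0.69, lost without any array other than parental array 1), and in Rh41 1 rose and 1 fell (MDM2 by 0.76). The inhibitor gene CDKN1A, which acts upstream of DREAM by holding CDK activity down, was at 4.10 ± 0.54 in resistant and 6.06 ± 0.69 in parental NCI-H520 (SD, n = 3 each), a fall of 1.96 into low signal. It changed by 0.19 in SJCRH30 without a call and rose by 1.07 in Rh41, at 7.51 ± 0.15 in resistant (SD, n = 5) and 6.45 ± 0.04 in parental cells (SD, n = 3). Among 4 promoter partners of these complexes, CREBBP, a coactivator with acetyltransferase activity, rose by 0.66 in NCI-H520, a call lost without parental array 2 or 3 or resistant array 1 or 3. NFYA, a subunit of the CCAAT-binding factor NF-Y, rose by 1.01 in SJCRH30. Beside the counts of these lists, 10.1% of all clusters rose and 9.9% fell in NCI-H520. The shares were 9.42% and 9.28% in SJCRH30 and 5.69% and 3.08% in Rh41.

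Close relatives of the members were read beside them, with 2 of 3 risen in NCI-H520, none called in SJCRH30 and 1 fallen in Rh41. Over all clusters 10.1% rose in NCI-H520 and 3.08% fell in Rh41. MYB, the founding gene of the MYB family, averaged 11.72 ± 0.22 in resistant and 10.54 ± 0.15 in parental NCI-H520 (SD, n = 3 each), a rise of 1.18, changed by 0.56 in SJCRH30 without a call and fell by 0.76 in Rh41. RBBP7, the close relative of RBBP4, rose by 0.77 in NCI-H520, a call lost without parental array 1 or 3 or resistant array 1 or 2. RB1, the retinoblastoma pocket protein gene, changed by 0.37, 0.10 and -0.11 in NCI-H520, SJCRH30 and Rh41 and was called in none.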

How the data were processed

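Biotin-labelled total RNA of 20 cultures was hybridized to Clariom S arrays. The authors computed the deposited log2 values with RMA, and these values entered the tests unchanged. The RMA version and the genome build are not given in the sources used here. After sorting, the 8 Rh41 arrays held the same values within 0.01, and so did the other 12 arrays among themselves, but these sets differed, so no test crossed to Rh41. Of 21448 transcript clusters, 3739 with several symbols or none were left out, and no filter on low values was applied. Symbols came from the platform annotation. Each line was fitted by itself with lmFit and eBayes (limma 3.58.1, R 4.3.3), and the difference of changes and the parental levels in a fit of the 4 NCI-H520 and SJCRH30 groups. The steps were tested on simulated data. Promoter windows were searched and figures drawn with Python 3.11.15, pandas 2.3.3 and matplotlib 3.10.9.

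The members and gene lists were chosen with earlier results of these data known. Named genes were the 10 members, in each line up to 3 rises and 3 falls of largest size past the threshold from each list, a panel of 10 genes (MKI67, CCNB1, CDK1, PLK1, E2F4, DYRK1A, CDKN1A, RB1, MYB and RBBP7) and the 5 genes most like a member in pattern. Lists held 53 G2/M targets, 53 G1/S targets (50 measured), 6 DREAM genes, 6 kinases and cyclins, 9 CDK inhibitors and regulators (7 measured), 5 promoter partners (4 measured), 3 relatives, and markers of squamous, muscle, leukocyte, endothelial and fibroblast cells. List genes that matched no cluster were not analysed here. Of 6 fibroblast markers, 3 or 4 had a mean of 5 or more in each group. Of 5 leukocyte markers, 1 to 3 did, of 4 endothelial markers 1 to 3, of 7 squamous markers 1 to 4, and of 10 muscle markers 8 or 9 in the rhabdomyosarcoma lines and 5 or 6 in NCI-H520. Alternatives were all clusters, a mean of 5 or more, limma-trend, a robust prior, 1 fit of 4 groups, the scale of the other set of arrays, 2-fold, the adjusted p alone in Rh41, the replicate number as a block, and each array left out.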

Additional observations from a re-analysis of the deposited data

Results flagged for a closer look

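The change with resistance differed between NCI-H520 and SJCRH30, by a test of the difference itself, for 4 members: MYBL2 by 3.19 (limma adjusted p = 5.70e-07), FOXM1 by 2.41 (limma adjusted p = 1.72e-05), LIN9 by 1.13 (limma adjusted p = 0.00648) and RBL2 by -1.48 (limma adjusted p = 0.000474), each as NCI-H520 minus SJCRH30 in log2. For 3 members all resistant Rh41 arrays lay below all parental Rh41 arrays while all resistant NCI-H520 arrays lay above theirs. The share of all clusters with this pattern was not counted, so whether 3 of 10 is unusual cannot be said. FOXM1 changed by -0.31 in Rh41 and 1.78 in NCI-H520, MYBL2 by -0.46 in Rh41 and 1.74 in NCI-H520, and LIN54 by -0.48 in Rh41 and 0.23 in NCI-H520, the last of which was not called. These differences were not tested, because Rh41 had been normalized apart. Resistant Rh41 array 2 stood below the other 4 resistant arrays for LIN9, at 6.60, with a gap of 0.717 of the group's range, just over Dixon's 95% limit of 0.71 for 5 arrays. It was the only one of the 10 members so marked in that group, the only group large enough for this rule, and chance marks about 1 in 20.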

How the results depend on the processing

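The replicate numbers were not found to pair the arrays (correlations of deviations -0.18 to 0.28), and with the replicate block 5 members rose and 1 fell in NCI-H520, 1 rose and 2 fell in SJCRH30 and 1 rose and none fell in Rh41, the counts without it. On the scale of the other set of arrays no member fell in NCI-H520, where the calls of RBL2 (-0.51) and RBL1 (0.44) were lost. In SJCRH30 1 fell (MYBL2 -0.78, limma adjusted p = 0.0101), and the call of FOXM1 was lost (-0.34, limma adjusted p = 0.119). In Rh41 2 rose (LIN9 0.75 and LIN37 0.77) and 2 fell (MYBL2 -0.83 and LIN54 -0.83), with MYBL1 at 0.42 lost. The LIN9 difference, 0.56 on that scale, was not called. Across the settings that kept all arrays, G2/M rises ranged over 2 to 7 in SJCRH30 and 0 to 4 in Rh41, G2/M falls over 6 to 16 in SJCRH30 and 0 to 13 in Rh41, G1/S rises over 4 to 13 in SJCRH30 and G1/S falls over 2 to 22 in Rh41. Past 2-fold no member fell in NCI-H520, 1 fell in SJCRH30 and none rose in Rh41. The SJCRH30 fall count was also 1 with all clusters, a robust prior or 1 fit of 4 groups (FOXM1 limma adjusted p = 0.0578, 0.0508 and 0.0506). With a mean of 5 or more, MYBL1 was not tested in Rh41 and none rose. With the adjusted p alone, 2 rose and 2 fell in Rh41. Leaving out 1 array gave 1 to 2 falls in SJCRH30, 0 to 2 rises and 0 to 1 falls in Rh41, and 1 to 2 members lower in parental SJCRH30. Values near 0 that were not called changed sign in some settings: RBL1 in Rh41 (0.043 with the replicate block) and, with 1 array left out, RBBP4 in NCI-H520 (-0.035 to 0.18), LIN37 (-0.41 to 0.031), LIN52 (-0.25 to 0.099), LIN54 (-0.074 to 0.28) and RBL1 (-0.055 to 0.082) in SJCRH30, RBL1 (-0.079 to 0.0094), RBL2 (-0.060 to 0.080), MKI67 (-0.035 to 0.046), PLK1 (-0.034 to 0.0083) and RBBP7 (-0.17 to 0.075) in Rh41, and the differences of MYBL1 (-0.16 to 0.16) and LIN54 (-0.058 to 0.30). Rh41 has its own fit, so 1 fit of 4 groups does not apply to it. Counting each member under each setting, 731 values kept their direction and side of the threshold, 23 lost a call, 14 gained one and 21 changed sign. The causes were not tested. The number of arrays, 3 to 5 a group, limits the precision of every value.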

Other observations

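Patterns were compared across the 20 arrays. Each line was centred on its own mean and divided by the standard deviation of its arrays over all clusters. The transcripts whose pattern was most like that of FOXM1 by Pearson's r were CDC25B (0.949), TMPO (0.946), GINS1 (0.939), H2BC3 (0.938) and ASF1B (0.931). Of these, 3 (CDC25B, GINS1 and ASF1B) encode a mitotic phosphatase, a replicative helicase subunit and a histone chaperone. For MYBL2 they were HS3ST3B1 (0.965), ASF1B (0.952), UBE2S (0.950), TLE1 (0.947) and HS3ST3A1 (0.920). HS3ST3B1, a heparan sulfate sulfotransferase gene, had a log2 change of 2.39 in NCI-H520, of -2.18 in SJCRH30 and of -0.68 in Rh41. LIN9 was followed most closely by PAM (0.924), TMEM245 (0.920), MAP2K1 (0.918), ADA (0.901) and ATP6V1C1 (0.901). RBL2 was followed by NETO2 (0.884), FN1 (0.869), IQCK (0.859), CDH2 (0.856) and USP25 (0.853). FN1, the gene of fibronectin, had a log2 change of -4.54 in NCI-H520, of 2.88 in SJCRH30 and of -0.38 in Rh41. Over the same arrays FOXM1 and MYBL2 correlated at 0.892, FOXM1 and RBL2 at -0.728, MYBL2 and RBL2 at -0.751, and MYBL1 and MYBL2 at -0.108. The arrays share their groups, so these values describe the 6 groups and carry no test.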
